A study of Mus musculus with 2 samples.

Results

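The secreted Wnt antagonists are extracellular proteins that lower Wnt signalling, and 9 of their genes were compared in B-Gal positive cells, set against B-Gal negative cells, of healing mouse skin. The genes were chosen by name: the secreted Frizzled-related genes Sfrp1, Sfrp2, Sfrp4, Sfrp5 and Frzb, the Dickkopf genes Dkk1, Dkk2 and Dkk3, and Wif1. Earlier results of these data were known when these genes and the lists below were chosen, so the counts are descriptions only. All 9 were measured, among 19938 genes in all, each by 1 probe set that names no other gene. The cells came from skin scar tissue of mice labelled as TCF reporter mice, 1 week after wounding, and each group had 1 Affymetrix Mouse Gene ST array. The B-Gal positive group is read here as cells with beta-galactosidase and the B-Gal negative group as cells without it, in mice whose transgene reports activity of TCF, the nuclear partner of beta-catenin in Wnt signalling. Both groups therefore share the reporter genotype, the wound and the time point. The strain, sex and age of the mice, the promoter of the reporter, the number of mice behind an array and the way the cells were separated are not stated in the labels or the design text. The design text describes homogenised wound tissue and does not say how this gave separate cell groups. With no replicates, no difference below has an error or a test, and the number of arrays limits the precision.

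Wnt proteins are lipid-modified ligands that bind Frizzled receptors and the co-receptors Lrp5 and Lrp6, after which beta-catenin accumulates and acts with TCF factors in the nucleus. The secreted Frizzled-related proteins carry a cysteine-rich domain like that of Frizzled receptors and bind Wnts outside the cell, as Wif1 does through a domain of a different kind. Dickkopf proteins act on the receptor side: Dkk1 and Dkk2 bind Lrp5 and Lrp6, while Dkk3 is a divergent member for which this activity is disputed. In skin, dermal fibroblasts are a known source of several of these proteins, which take part in hair follicle cycling and in the repair of the dermis.

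Of the 9 antagonist genes, 5 were at least 2-fold lower in B-Gal positive cells, 0 were at least 2-fold higher, and 4 differed by less than 2-fold. The 5 lower genes were Sfrp4, Dkk3, Sfrp2, Sfrp1 and Dkk2. Across all 19938 genes, 9.08% were at least 2-fold lower in B-Gal positive cells and 7.23% at least 2-fold higher. The median log2 difference, B-Gal positive minus B-Gal negative, was -1.17 over the 9 genes and 0.12 over all genes. At least 8-fold lower values were found for 3 of them, Sfrp4, Dkk3 and Sfrp2, and for 1.74% of all genes. The 4 genes under 2-fold had values close to or under the detection floor in both arrays.

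The floor marks where a probe set cannot be told from background. It lay at 5.59 on the log2 scale. This is the 95th percentile over 1194 genes of olfactory or vomeronasal receptors, whose known place of use is the nose. Above it in both arrays were 3 antagonist genes (Sfrp2, Sfrp4 and Dkk3). In the B-Gal negative array only, 3 more were above it (Sfrp1, Dkk2 and Wif1), in the B-Gal positive array only 1 (Dkk1), and in neither array 2 (Sfrp5 and Frzb). For a gene with 1 array under the floor, the floor stood in for that array. The printed fold is then a lower bound ("at least") for the deposited values only, and other processing can give a smaller one.

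**Figure D1:**
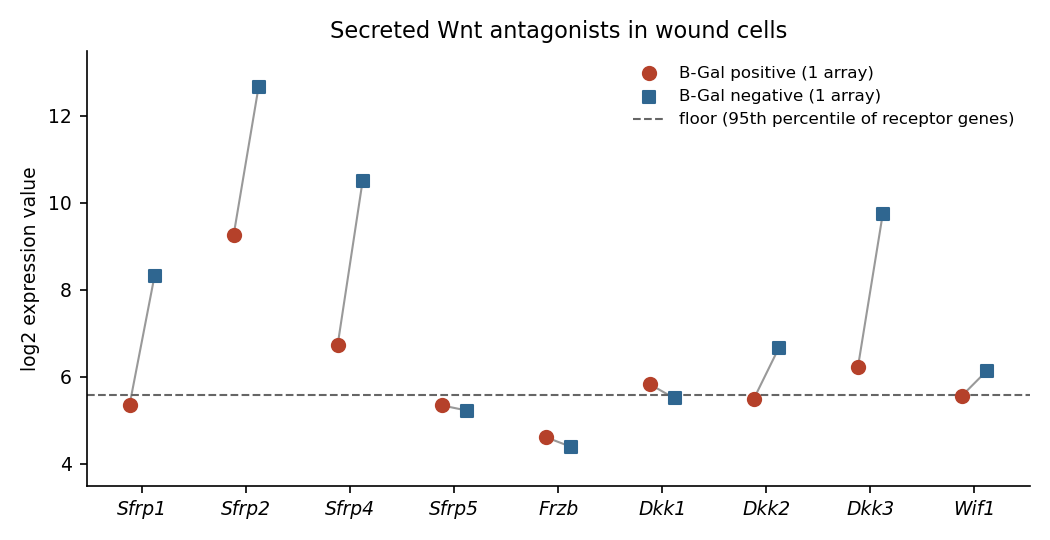
Log2 expression values of the 9 secreted Wnt antagonist genes in the B-Gal positive array (circles) and the B-Gal negative array (squares), 1 array per group, with the floor at 5.59 as a dashed line. Sfrp1, Sfrp2, Sfrp4 and Dkk3 lie far lower in the B-Gal positive array, while Sfrp5 and Frzb lie under the floor in both arrays.

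Among the Wnt-binding antagonists, Sfrp2 had a log2 value of 9.26 in B-Gal positive cells and 12.67 in B-Gal negative cells. This was a 10.6-fold lower value in the B-Gal positive array, which was still well above the floor, by 3.67 on the log2 scale. Sfrp2 encodes a protein that modulates Wnt signalling and is widely used as a marker of dermal fibroblasts. Sfrp4, known for its role in bone and for expression in dermal stroma, had a log2 value of 6.73 in B-Gal positive cells and 10.50 in B-Gal negative cells. Its value was 13.7-fold lower, and 131 of the 19938 genes had a lower deposited difference. Sfrp1 had a log2 value of 5.35 in B-Gal positive cells and 8.32 in B-Gal negative cells, a clear signal in the second array and a value under the floor in the first. It was at least 6.65-fold lower.

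The remaining Frizzled-related genes gave no signal above the floor. Sfrp5, a gene best known from adipose tissue and early endoderm, had log2 values of 5.35 in B-Gal positive cells and 5.23 in B-Gal negative cells. Frzb, first described in cartilage, had log2 values of 4.62 in B-Gal positive cells and 4.40 in B-Gal negative cells. Neither gene has a measurable direction, since values under the floor have no order, and the sign of both differences (0.12 and 0.22) turned under loess and under centring on receptor genes, and that of Sfrp5 also under quantile normalization. Of the 5 Frizzled-related genes, 3 were thus at least 2-fold lower and 2 were not detected at this signal.

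Wif1, which binds Wnts in the extracellular space, had log2 values of 5.57 in B-Gal positive cells and 6.14 in B-Gal negative cells. The first value lay just under the floor and the second 0.56 above it. The difference of -0.58 on the log2 scale did not reach 2-fold, and against the floor Wif1 was at least 1.47-fold lower.

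The Dickkopf genes differed from each other. Dkk3 had log2 values of 6.22 in B-Gal positive cells and 9.76 in B-Gal negative cells, and was 11.6-fold lower. Dkk2, which can act as an antagonist or a weak agonist at Lrp6 depending on the cell, had log2 values of 5.50 in B-Gal positive cells and 6.67 in B-Gal negative cells. It was at least 2.11-fold lower, with the B-Gal positive value under the floor, and its log2 difference of -1.17 became -0.98 with array medians centred and -0.79 with an offset of 32 on the linear scale, both short of 2-fold. Dkk1, a potent inhibitor of Lrp5 and Lrp6 and itself a known target of beta-catenin and TCF in several cell types, had log2 values of 5.83 in B-Gal positive cells and 5.50 in B-Gal negative cells. Its value was at least 1.19-fold higher, with a difference of 0.33 on the log2 scale. Both values lay near the floor, so Dkk1 stood near background in both arrays. Its difference is also close to the median of 0.28 over the receptor genes, and became 0.04 with receptor genes centred.

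Promoter sequences are shown for Sfrp2 and Dkk2, which were lower in B-Gal positive cells, and for Dkk1, which was not, so that genes with different values in these TCF reporter cells can be read side by side. They are the RefSeq windows of 300 bases in mouse build GRCm38.p6, from 250 bases before to 50 after the start of the gene, written 5′ to 3′ on the gene's strand. Capitals mark matches to the TCF word CTTTGAA, the variant CTTTGAT, the variant CTTTGTA and the variant CTTTGTT, and to the TATA word written TATAAA, each searched on both strands. The windows are chr3:83766071-83766370 on the plus strand for Sfrp2, chr3:132085042-132085341 on the plus strand for Dkk2 and chr19:30549447-30549746 on the minus strand for Dkk1.
Sfrp2: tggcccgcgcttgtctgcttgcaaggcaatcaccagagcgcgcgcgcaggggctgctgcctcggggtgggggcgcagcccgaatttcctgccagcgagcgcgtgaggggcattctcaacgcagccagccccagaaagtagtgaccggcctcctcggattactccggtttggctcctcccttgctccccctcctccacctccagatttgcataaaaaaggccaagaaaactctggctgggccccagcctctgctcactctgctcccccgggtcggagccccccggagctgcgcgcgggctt
Dkk2: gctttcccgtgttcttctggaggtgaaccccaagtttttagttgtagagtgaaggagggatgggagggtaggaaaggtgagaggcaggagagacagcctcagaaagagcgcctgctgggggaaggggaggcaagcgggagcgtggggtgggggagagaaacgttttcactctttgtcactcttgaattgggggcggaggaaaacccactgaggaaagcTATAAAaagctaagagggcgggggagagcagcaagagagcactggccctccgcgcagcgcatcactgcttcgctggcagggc
Dkk1: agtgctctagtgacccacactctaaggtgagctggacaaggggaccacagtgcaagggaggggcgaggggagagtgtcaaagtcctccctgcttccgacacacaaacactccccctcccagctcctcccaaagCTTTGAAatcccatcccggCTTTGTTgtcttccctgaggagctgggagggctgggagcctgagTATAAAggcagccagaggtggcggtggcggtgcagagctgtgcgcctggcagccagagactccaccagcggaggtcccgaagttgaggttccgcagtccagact

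Dkk1 held 2 TCF words, beginning 117 and 98 bases before the start of the gene, and a TATA word beginning 54 bases before it, none overlapping another. Dkk2 held a TATA word 32 bases before its start and no TCF word, and Sfrp2 held neither. Of the windows not printed, that of Wif1 held a TATA word on the opposite strand, 232 bases before its start. Those of Frzb and Sfrp5 held no TATA word. At least 1 TCF word was present in 16.9% of the 32851 mouse windows of this length, at least 2 in 1.94%, and a TATA word in 13.6%. The windows of Frzb, Sfrp5 and Wif1 also held no TCF word, so 1 of the 6 antagonist genes with a window had any. Like Dkk1, the genes Frzb, Sfrp5 and Wif1 differed by less than 2-fold. The windows were rich in G and C, from 57.7% in Dkk2 to 66.0% in Sfrp2, against a median of 52.7% over all windows. Sfrp1, Sfrp4 and Dkk3 were not matched. A word match is a description of these letters and no evidence of binding.

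By deposited difference, 4 antagonist genes lay close together, Dkk2 and Wif1 were intermediate, and Sfrp5, Frzb and Dkk1 were near 0. Sfrp4 (-3.77), Dkk3 (-3.54), Sfrp2 (-3.41) and Sfrp1 (-2.96) spanned 0.81 on the log2 scale. Neighbours within this group were 0.13 to 0.44 apart. Receptor gene differences had an SD of 0.37, but across genes mostly under the floor and not across replicates, so it cannot settle the order of higher genes. With 1 array per group, the order within this group is not resolved. The differences of Sfrp1, Dkk2 and Wif1 rest on B-Gal positive values under the floor, so their size and the distances between them are not resolved. Of all 19938 genes, 0.66% ranked at or under the difference of Sfrp4, 0.98% at or under that of Dkk3 and 1.16% at or under that of Sfrp2, the 3 genes measured above the floor in both arrays.

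**Figure D2:**
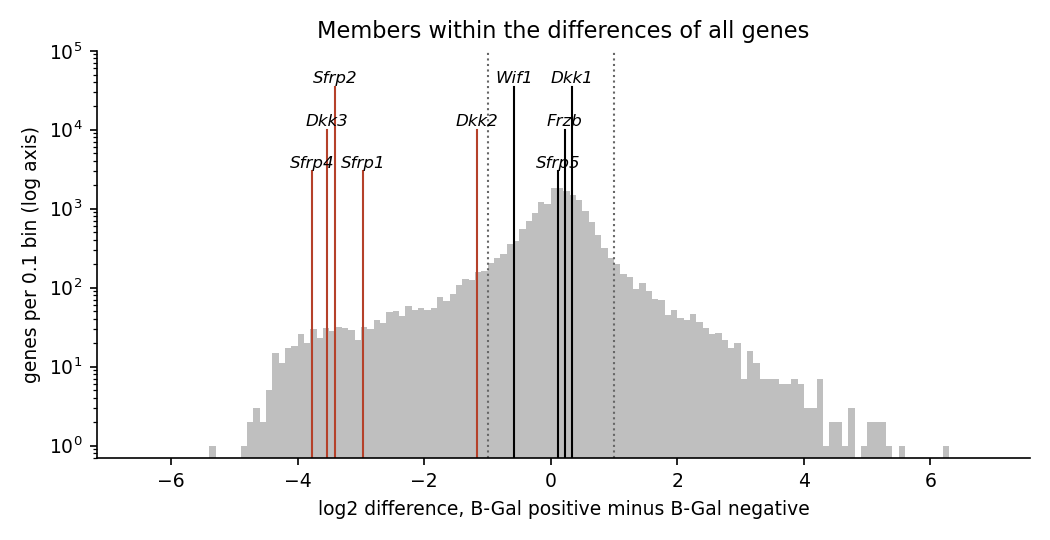
Histogram of the log2 difference, B-Gal positive minus B-Gal negative, over 19938 genes (log axis of gene number per bin), with a vertical line for each antagonist gene, red where it was at least 2-fold lower, and dotted lines at 2-fold. Sfrp4, Dkk3, Sfrp2 and Sfrp1 stand together in the lower tail, and Sfrp5, Frzb and Dkk1 stand under the peak.

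Markers of several cell types in a wound also differed between the arrays, and not all in the same direction. Beside these marker counts, 9.08% of all genes were at least 2-fold lower and 7.23% at least 2-fold higher. Of 14 measured fibroblast markers, all 14 were at least 2-fold lower in B-Gal positive cells, with a median of -3.27 and a range of -4.32 to -1.91. All were above the floor in both arrays, and their summed linear level was 15777 in B-Gal positive cells and 89207 in B-Gal negative cells. Pdgfra, the fibroblast receptor gene for platelet-derived growth factors, had log2 values of 7.45 in B-Gal positive cells and 11.78 in B-Gal negative cells, and Col1a1, a chain of type I collagen, was 3.88-fold lower. The differences of Sfrp4, Dkk3, Sfrp2 and Sfrp1 lay within the range of these markers, with 4, 5, 6 and 9 of the 14 markers lower still. The deposited differences of the other 5 antagonist genes lay outside it, each with at least 1 array under the floor, so their place beside the markers is not resolved. All 13 macrophage markers were at least 2-fold higher, with a summed linear level of 58529 in B-Gal positive cells and 5305 in B-Gal negative cells and a median difference of 3.52. Adgre1, a macrophage surface receptor gene, was 26.9-fold higher and Csf1r, the receptor of the macrophage growth factor, 11.5-fold higher. The part of this shift in cell markers in the antagonist values was not tested. In RNA from many cells, fewer cells of a type and less RNA per cell cannot be told apart.

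Among mural cell markers, 8 of 9 passed 2-fold on the lower side (median -2.73), with a summed linear level of 1030 in B-Gal positive cells and 10846 in B-Gal negative cells. Pdgfrb and Rgs5, both pericyte genes, were 19.6-fold and 15.4-fold lower. Endothelial markers were lower by that threshold for 6 of 7 (median -1.72), and their sum was 657 in B-Gal positive cells and 2092 in B-Gal negative cells. The endothelial count was 5 with array medians centred or with the offset, and the mural count was 7 with the offset. Keratinocyte markers lay mostly near the floor: 2 of 9 were at least 2-fold lower, Krt5 and Krt14 (1 with array medians centred or with the offset), and their sum was 433 in B-Gal positive cells and 618 in B-Gal negative cells.

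The fixed lists held 146 measured genes, and those nearest to each lower antagonist gene in difference were looked up as genes of like pattern over the 2 arrays. Sfrp2 was nearest to Postn (-3.43), a matricellular protein gene, and to the fibulin gene Fbln1 (-3.30). Sfrp4 was nearest to Acta2 (-3.79), the smooth muscle actin of myofibroblasts and mural cells, and to Thy1 (-3.70), a surface antigen gene of fibroblasts. Dkk3 was nearest to Lgr4 (-3.52), a receptor gene for R-spondins, and to Ccn4 (-3.56), a matricellular gene. Sfrp1 was nearest to the tendon gene Tnmd (-2.98) and to the Wnt receptor gene Fzd1, which was 7.99-fold lower. Dkk2 was nearest to the endothelial gene Tie1 (-1.18) and to Krt14 (-1.12). A likeness over 2 arrays is a single shared difference, and for Sfrp1, Dkk2, Tnmd and Lgr4 it rests on B-Gal positive values under the floor, so those pairings are of deposited values only.

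The partners of these proteins in the pathway did not all differ in the same direction. Beside the pathway counts that follow, 9.08% of all genes were at least 2-fold lower and 7.23% at least 2-fold higher. Among Frizzled and other Wnt receptor genes, 9 of 13 were lower by this threshold and 0 were higher (median -2.02). Ryk, a Wnt-binding receptor of the tyrosine kinase family, was 14.8-fold lower and Fzd2 8.30-fold lower. Of the 19 Wnt ligand genes, 3 were lower by it and 0 higher, around a median of 0.13. Wnt5a, a ligand of mesenchymal cells that mostly signals without beta-catenin, was at least 9.14-fold lower and Wnt2 5.60-fold lower. The B-Gal positive value of Wnt2 was only 0.05 above the floor, so the size of its fold is uncertain. With receptor genes centred, 5 ligand genes were lower by the threshold, beside 12.5% of all genes under that setting.

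The Dickkopf receptor genes went both ways. Lrp6 had log2 values of 10.22 in B-Gal positive cells and 9.19 in B-Gal negative cells, a 2.04-fold higher value and the only gene of these pathway lists at least 2-fold higher. It was just past that threshold, and under quantile normalization, loess, centring on receptor genes and the offset 0 genes of this list were. Kremen1, which helps Dkk1 to remove Lrp6 from the cell surface, had log2 values of 7.27 in B-Gal positive cells and 8.55 in B-Gal negative cells and was 2.42-fold lower. Lrp5 and Kremen2 differed by less than 2-fold, so the list had 1 lower, 1 higher and 2 of 4 under the threshold.

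Other extracellular Wnt antagonists included 12 genes, of which 2 were at least 2-fold lower, 0 were higher and 10 differed less. Tpbg, a membrane protein that inhibits Wnt signalling at the receptor, was 18.0-fold lower, and Apcdd1, a membrane-bound Wnt inhibitor expressed in hair follicles, was 5.05-fold lower. The B-Gal positive value of Tpbg was only 0.04 above the floor, so the size of its fold is uncertain. The median of these 12 was 0.02, against -1.17 for the 9 antagonist genes described above, a difference in size that has no test here. With only the genes that had at least 1 array above the floor, the medians were -0.26 and -2.96. Among R-spondins, which amplify Wnt signals, and their receptors, 2 of 9 passed 2-fold on the lower side and 0 on the higher side, Lgr4 (at least 5.85-fold) and Lgr5 (at least 2.64-fold).

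Feedback and target genes of TCF and beta-catenin numbered 11, of which 4 passed 2-fold on the lower side and 0 on the higher side (median -0.78). The lower count became 6 with receptor genes centred, and 3 with array medians centred or with the offset. Under these settings, in that order, 12.5%, 7.56% and 6.9% of all genes were at least 2-fold lower. Axin2, a feedback inhibitor that TCF is known to induce, had log2 values of 5.86 in B-Gal positive cells and 6.88 in B-Gal negative cells, a 2.03-fold lower value in the group labelled positive for the reporter and close to the threshold, short of which it fell with array medians centred and with the offset. The other lower genes were Ccn4 (11.8-fold), Twist1 (9.16-fold), which encodes a transcription factor of mesenchymal cells, and Myc (5.36-fold), named after its value was seen. The reporter itself was not measured, since the platform annotation used here names no bacterial beta-galactosidase gene, so the labels were not checked against it.

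**Figure D3:**
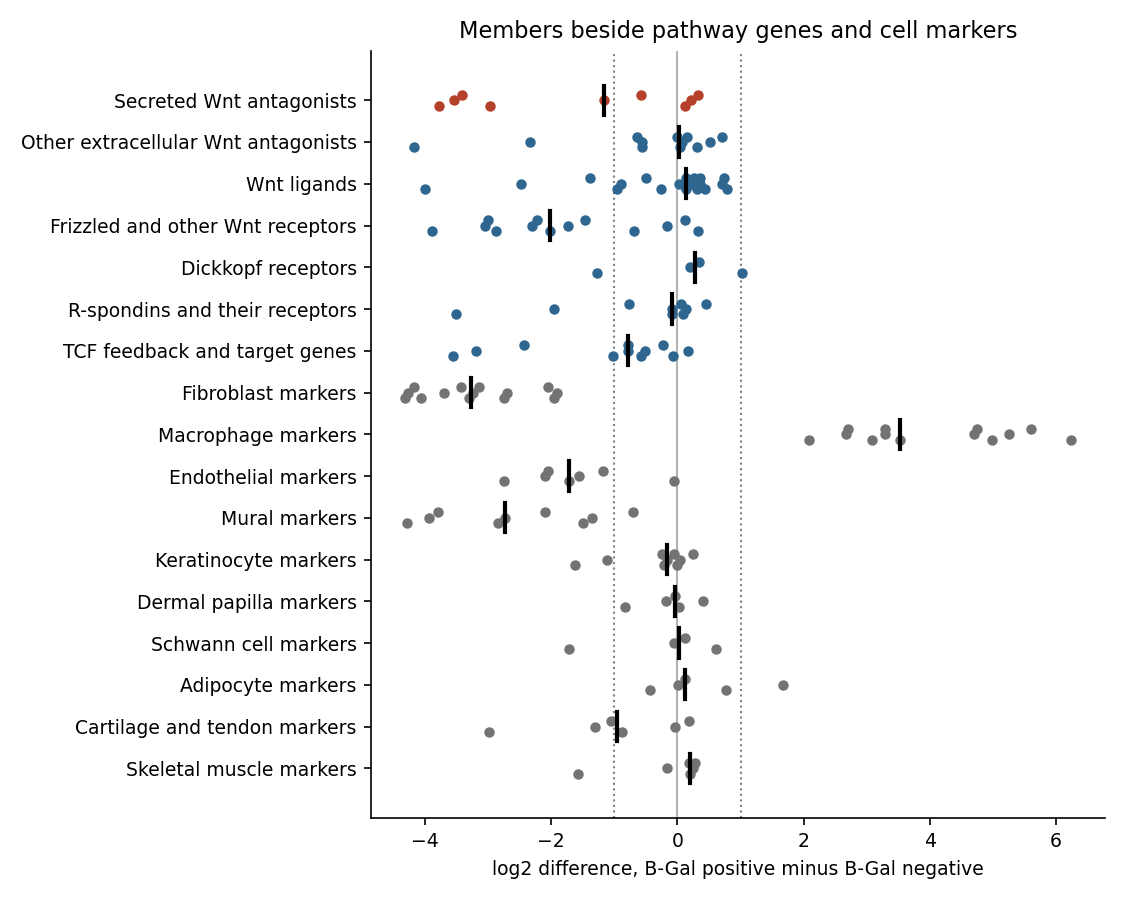
Log2 difference, B-Gal positive minus B-Gal negative, of each measured gene in the secreted Wnt antagonist group (red), the pathway lists (blue) and the cell marker lists (grey), with list medians as black bars and dotted lines at 2-fold. Sfrp4, Dkk3, Sfrp2 and Sfrp1 lie within the range of the fibroblast markers (-4.32 to -1.91), Dkk2 and Wif1 lie between it and 0, and the macrophage markers all lie on the higher side.

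The differences were also computed under other processing of the same 2 arrays. Sfrp1 ranged from -3.25 to -2.27, Sfrp2 from -3.69 to -3.22, Sfrp4 from -4.06 to -3.42 and Dkk3 from -3.82 to -3.08 over the deposited values and 7 alternatives. Wif1 ranged from -0.86 to -0.37 and Dkk1 from 0.04 to 0.51, so neither reached 2-fold under any of them. The smallest difference of Sfrp1, Sfrp4 and Dkk3 came with the offset on the linear scale, which shrinks differences of low values.

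**Figure D4:**
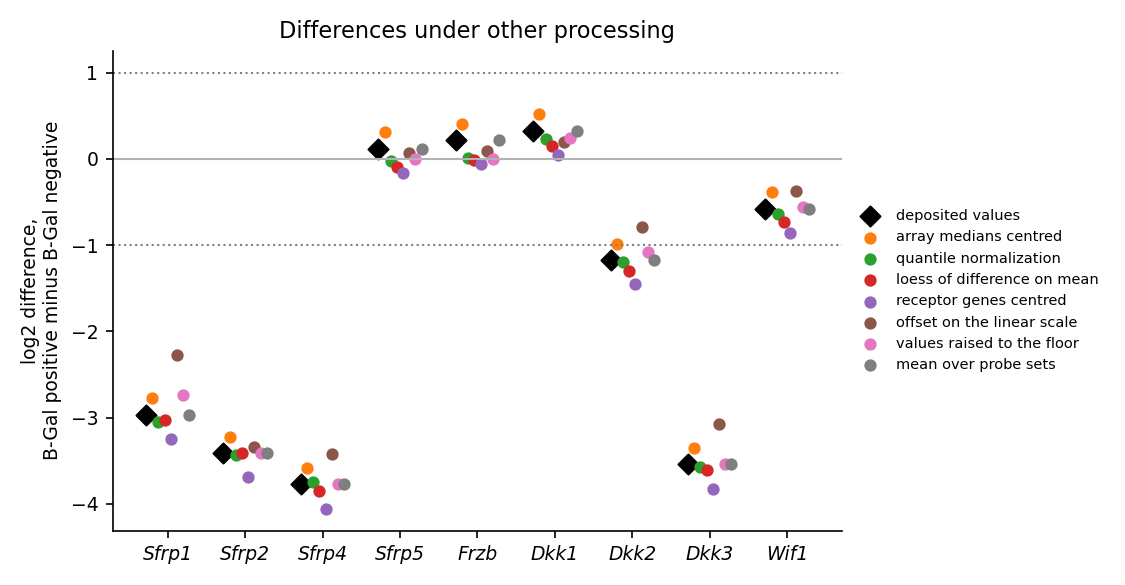
Log2 difference, B-Gal positive minus B-Gal negative, of each antagonist gene under the deposited values (black diamonds) and 7 alternatives (coloured circles), with dotted lines at 2-fold. Sfrp1, Sfrp2, Sfrp4 and Dkk3 stay below -2 throughout, and Dkk2 crosses the 2-fold line.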

How the data were processed

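Per the labels, 2 arrays were hybridised with biotin-labelled total RNA. The values deposited by the authors are used as log2 expression values, 1 per probe set, ranging from 1.16 to 14.8. The log base was inferred from that range. Partek is the software named, per the submitters' processing notes, and the background correction, summarization and scaling are not stated there.

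Of 28853 probe sets, 21789 name 1 gene in the platform annotation. Symbols were updated by gene ID through RefSeq (GRCm38.p6), and 21698 matched. Of 999 genes with several probe sets the one with the highest mean was kept. Differences and counts use all measured genes of a list. The members and lists were chosen with earlier results of these data known. Genes to name were the 9 members, the 2 genes of each list with the largest difference among those above the floor, 5 fixed genes (Col1a1, Pdgfra, Adgre1, Csf1r, Axin2) and genes of like pattern. Not all of these are named in the text, which leaves out Cd163, Mrc1, Tek and Emcn among others. Lrp5, Kremen2, Myc and Cdh19 are named outside this rule. Of 149 list entries, 146 were used, and 3 are not reported here. Calculations used Python 3.11.15, pandas 2.3.3 and statsmodels 0.14.6. The 2-fold threshold was tried on simulated differences and the fold rule on fixed inputs, and the other steps were not tried in this way. No test was run.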

Additional observations from a re-analysis of the deposited data

How the results depend on the processing

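With 1 array per group, no replicate could be left out and no error computed. No paired analysis was possible because each group has 1 array. The count of 5 lower antagonist genes was 4 with array medians centred, with the offset and at 4-fold, and 5 under the other alternatives, and the count of higher genes was 0 under all. With array medians centred, with the offset and at 4-fold, 7.56%, 6.9% and 3.98% of all genes were lower, against 9.08% as deposited. Under the other alternatives computed over all genes, this share ran from 8.03% (values raised to the floor) to 14.7% (1.5-fold). Their median of -1.17 became -0.79 with the offset. It became -2.96 with only the 7 genes above the floor and -3.41 with the floor moved to the receptor genes' 99th percentile, since low genes are then left out. The mean was -1.64. A shift over 0.37, the SD of receptor gene differences, was counted as a move. Scaling moved the median difference of all genes to 0.31 with array medians centred and to -0.16 with receptor genes centred, against 0.12 as deposited. Of all genes called, 44.3% were higher on deposited values, 56.3% with medians centred and 28.2% with receptor genes centred. Background signal limits Sfrp5, Frzb, Dkk1 and Wif1, whose values lay near or under the floor.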

Other observations

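Markers of cell types less common in a wound were also read in both arrays. Beside the counts that follow, 9.08% of all genes were at least 2-fold lower and 7.23% at least 2-fold higher. A single gene past 2-fold in so short a list is therefore not read as a result about the list. Of 6 cartilage and tendon markers, 3 were at least 2-fold lower in B-Gal positive cells, among them Tnmd, a tendon membrane protein gene (at least 4.38-fold), and the chondrocyte transcription factor gene Sox9 (2.47-fold). The count was 2 with array medians centred, with the offset and with values raised to the floor, and 4 with receptor genes centred. The list's median was -0.96 in log2 difference. Dermal papilla markers were mostly under the floor, with 1 of 5 above it in B-Gal positive cells and 2 of 5 in B-Gal negative cells, and none differed by 2-fold.

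Among 5 adipocyte markers 1 was at least 2-fold higher, Pparg (3.18-fold), a nuclear receptor gene that macrophages also express. Of 6 skeletal muscle markers 1 was at least 2-fold lower, the desmin gene Des (2.99-fold), which mural cells also express. The B-Gal positive value of Des was only 0.06 above the floor. Of the 4 measured Schwann cell markers 2 were above the floor, Mbp and Sox10, with differences of 0.62 and 0.11. The other two were under the floor in both arrays, among them Cdh19, named after its value was seen, with a deposited difference of -1.72 that has no measurable direction there.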
